A study of Rattus norvegicus with 19 samples.

Results

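A set of 8 genes with nuclear, mitotic or phosphatase roles was followed across 4 genotypes with 1, 2 or 3 copies of the rat segment homologous to human 16p11.2. Of the 8, 6 lie inside the segment and were chosen by symbol for a role in transcription, chromatin, phosphatase signalling or the spindle: *Maz*, *Ino80e*, *Hirip3*, *Pagr1*, *Kif22* and *Ppp4c*. The other 2, *Ppp4r1* and *Ppp4r2*, encode regulatory subunits of the phosphatase whose catalytic subunit is Ppp4c, and lie on other chromosomes. The 8 were found among 32623 genes in the files, and all 8 passed the expression filter with 15440 genes tested.

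RNA of the hippocampus from male Sprague Dawley rats, an outbred stock, was sequenced, with 1 library per animal and 19 libraries. The CRISPR/Cas9-made deletion and duplication are described as covering *Sult1a1* to *Spn* on chromosome 1. At the *Sult1a1* end the reads went against that for the duplication: *Sult1a1*, named here after its values were seen, had a log2 fold change against wt of -1.13 in Del/+ (adjusted p = 2.58e-08 by edgeR), -0.10 in Dup/+ (adjusted p = 0.736) and -1.23 in Del/Dup (adjusted p = 1.12e-07). The groups were 6 wt animals with 2 copies, 4 Del/+ animals with 1 copy, 5 Dup/+ animals with 3 copies, and 4 Del/Dup animals, which carried a deleted and a duplicated chromosome and so 2 copies. The rearranged chromosomes were combined by crossing the lines, and the age of these animals was not given in the labels. For wt replicate 5 the description read wt and the genotype field Dup/+. It was treated as wt here, with a second fit that took it as Dup/+.

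The proteins act in the nucleus or on chromosomes. Maz is a zinc finger protein that binds G-rich DNA at promoters and at chromatin boundaries. Ino80e is a subunit of the INO80 complex, which slides and exchanges nucleosomes, Hirip3 is a histone chaperone named for its binding to HIRA, and Pagr1 is a subunit of the complexes around the histone methyltransferases KMT2C and KMT2D. Kif22 is a kinesin that binds chromosome arms and moves them on the spindle, a role of dividing cells, which are few in the adult hippocampus. Ppp4c is the catalytic subunit of protein phosphatase 4 (PP4), a relative of PP2A that needs regulatory subunits to find its substrates, among them DNA damage and centrosome proteins. In bulk tissue, fewer cells of a type and less RNA per cell cannot be told apart.

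Read counts over genes totalled 16191192 to 38760645 per library, and levels were expressed as counts-per-million (CPM) of the scaled library total, a unit that suits a comparison of 1 gene between animals and not of different genes, since gene length is not divided out. Multi-mapped reads, which align to several places, took 40.1% to 47.6% of the counted lines in wt, 45.1% to 50.5% for Dup/+, 57.8% to 70.7% for Del/Dup, and in Del/+ 63.9% to 76.3% in replicates 1 to 3 and 41.6% in replicate 4. Markers of hippocampal neurons were at 4195 to 5314 CPM in sum, with all 9 genes read in every library. In Del/+ against wt 0 of 9 were called, near the background of 0.771% of all genes. Within that list, named after their values were seen, the granule cell markers *Prox1* (103 to 135 CPM in Del/+, 136 to 195 in wt) and *C1ql2* (55.2 to 74.2 in Del/+, 75.99 to 110.2 in wt) lay below the wt range in every Del/+ library, while *Snap25* had a mean of 1807 CPM in Del/+ and 1524 in wt. How many of all genes separate Del/+ from wt in this way was not counted, and the part of these 3 markers in the results was not tested. The 5 dividing-cell markers summed to 9.74 to 13.2 CPM and overlapped between all groups. Choroid plexus markers varied widely, from 2.79 to 33.8 CPM in wt, 4.80 to 1246 in Del/+, 40.6 to 1199 in Del/Dup and 6.11 to 402 in Dup/+. Of 3 blood markers 2 were called in Dup/+, and their sum was 135 to 180 CPM there against 85.2 to 120 in wt. With the level of *Ttr*, the leading choroid plexus marker, as a covariate, the interval genes called against wt were 6 of 6 in Del/+ (*Maz* at -1.23), 4 of 6 in Dup/+, where *Kif22* lost its call (0.66, adjusted p = 0.0798), and 0 of 6 in Del/Dup, where 51, 30 and 3 of the 15440 genes were called in these comparisons. The part of the blood markers was not tested.

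Promoter sequences were available for 5 of the 8 genes and are shown for the 4 interval genes among them, as the start regions of genes that moved together with copy number. Each is 250 bases before to 50 bases after the annotated start, from RefSeq on the assembly GRCr8, read 5′ to 3′ on the strand of the gene. Capitals mark every match to GGGAGGG, a G-rich box of the kind that Maz binds, or to its reverse complement CCCTCCC.
*Maz* (chr1:191064840-191065139, strand -): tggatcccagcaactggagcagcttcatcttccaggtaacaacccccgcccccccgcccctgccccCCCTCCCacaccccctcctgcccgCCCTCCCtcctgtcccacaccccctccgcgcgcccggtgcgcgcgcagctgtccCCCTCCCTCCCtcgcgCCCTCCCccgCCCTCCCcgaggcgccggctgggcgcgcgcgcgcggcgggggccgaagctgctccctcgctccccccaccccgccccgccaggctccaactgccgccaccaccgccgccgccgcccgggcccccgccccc
*Hirip3* (chr1:190902815-190903114, strand +): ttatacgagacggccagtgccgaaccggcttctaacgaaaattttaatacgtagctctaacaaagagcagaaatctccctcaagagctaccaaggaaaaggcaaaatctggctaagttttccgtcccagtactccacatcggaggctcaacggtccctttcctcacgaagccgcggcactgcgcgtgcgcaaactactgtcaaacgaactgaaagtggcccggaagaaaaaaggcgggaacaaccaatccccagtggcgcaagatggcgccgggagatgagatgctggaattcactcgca
*Kif22* (chr1:191080829-191081128, strand -): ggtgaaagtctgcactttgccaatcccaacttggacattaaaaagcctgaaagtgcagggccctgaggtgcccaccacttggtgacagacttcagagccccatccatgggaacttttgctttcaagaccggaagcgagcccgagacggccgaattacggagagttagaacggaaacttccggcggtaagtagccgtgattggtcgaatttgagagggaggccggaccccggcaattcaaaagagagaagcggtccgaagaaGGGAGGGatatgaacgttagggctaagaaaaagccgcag
*Ppp4c* (chr1:190829964-190830263, strand -): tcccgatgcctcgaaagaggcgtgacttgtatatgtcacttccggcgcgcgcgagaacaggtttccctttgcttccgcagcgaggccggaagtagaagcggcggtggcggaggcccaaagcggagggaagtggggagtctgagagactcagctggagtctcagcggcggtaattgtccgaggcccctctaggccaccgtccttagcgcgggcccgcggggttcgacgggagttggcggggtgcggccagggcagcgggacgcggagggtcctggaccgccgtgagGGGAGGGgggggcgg
The *Maz* promoter held 6 matches, of which 2 overlap, all written as CCCTCCC on the gene's strand, and 80.3% of its bases were G or C. *Kif22* and *Ppp4c* held 1 match each, and *Hirip3* and the promoter of *Ppp4r2* held 0. Among all 33469 promoters of the same length, 20.8% held the letters at least once, and 0.111% held them as often as *Maz* or more often. A match is a run of letters and was not measured as a binding site here. The promoters of *Ino80e*, *Pagr1* and *Ppp4r1* were not analysed here.

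In the GRCr8 gene table, which is not the assembly of the files, *Ino80e* lies next to *Hirip3*, and *Pagr1* and *Maz* lie on either side of *Prrt2*. *Ppp4c* overlaps *Tbx6*, *Ino80e* overlaps *Doc2a*, *Pagr1* overlaps *Prrt2*, *Maz* overlaps *LOC134483860* and *Kif22* overlaps *LOC108349644*. The strand setting of the counting was not given in the sources used here, so reads in the overlaps may be shared or left out.

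The first question was whether the 6 interval genes followed the number of copies. In all 6, the 4 Del/+ libraries lay below every wt, Del/Dup and Dup/+ library, and the 5 Dup/+ libraries lay above every other library. Over all genes tested, 0.466% were called lower in Del/+ than in wt and 0.214% were called higher in Dup/+. A call is another measure than a lack of overlap, whose share over all genes was not counted.

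**Figure D1:**
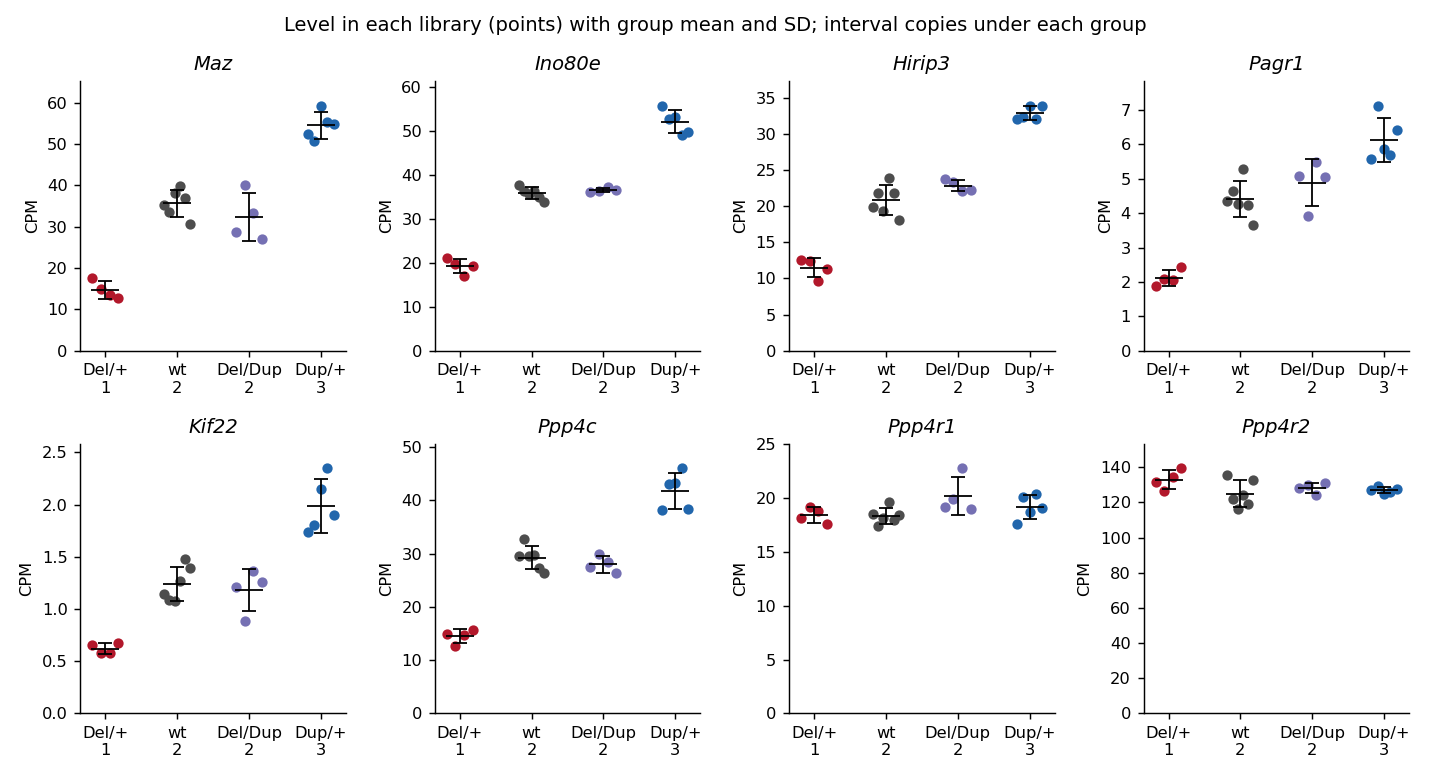
Level of each of the 8 genes in CPM (vertical axis, from 0) in every library (points), by genotype with the number of interval copies beneath. Horizontal marks and bars are the group mean and SD. The 6 interval genes step up from Del/+ through wt and Del/Dup to Dup/+ with no overlap at either step (*Maz* means 14.7, 35.7, 32.3 and 54.5 CPM), and *Ppp4r1* and *Ppp4r2* overlap between groups.

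Of the 6 genes, *Maz* was furthest from its copy number in Del/+, at a fold change close to those of the interval genes *Qprt* and *Spn* (log2 fold changes -1.26 and -1.23). Its level was 17.6, 14.9, 13.5 and 12.7 CPM in Del/+ replicates 1 to 4, and in wt the lowest, median and highest library were at 30.6, 36.0 and 39.8 CPM. Del/Dup libraries were at 28.7, 40.0, 33.4 and 27.0 CPM, and Dup/+ libraries at 52.5, 50.6, 59.3, 55.4 and 54.8 CPM. The Del/Dup animals spread past the wt range, 1 just above it and 2 below it, while the highest Del/+ library stood well under the lowest wt library. The fitted log2 fold change was -1.28 in Del/+ (SE 0.10, adjusted p = 1.04e-07 by edgeR's quasi-likelihood test with Benjamini-Hochberg adjustment, as throughout) and 0.61 in Dup/+ (SE 0.09, adjusted p = 0.00126). The 95% interval in Del/+, -1.501 to -1.06, did not hold the -1 that the ratio of copies gives. Divided by the copies, *Maz* in Del/+ was 82.3% ± 12.2 (SD, n = 4) of the wt mean, with single animals from 71.0% to 98.9%. The interval held -1 when Del/+ replicate 3 or Del/+ replicate 4 was left out (log2 fold changes -1.24 and -1.21), and with wt replicate 5 taken as Dup/+ (-1.27). Against Del/Dup, which has 2 copies as wt has, the log2 fold change was -1.14 with an interval of -1.37 to -0.90, which held -1.

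*Ino80e* showed the least spread among animals with 2 copies. Del/+ libraries were at 21.0, 19.7, 17.1 and 19.4 CPM, wt libraries from 33.9 to 37.7 with a median of 36.0 CPM, and Del/Dup libraries at 36.0, 36.3, 37.2 and 36.5 CPM. In Dup/+ it was at 55.8, 52.6, 53.2, 49.1 and 49.8 CPM. No Del/Dup animal left the wt range. The log2 fold change was -0.89 in Del/+ (SE 0.05, adjusted p = 5.70e-10) and 0.54 in Dup/+ (SE 0.05, adjusted p = 9.99e-07). Between Del/+ and Dup/+, it was -1.43, with a 95% interval of -1.54 to -1.32 that stopped short of the copy ratio of -1.585.

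*Hirip3*, the neighbour of *Ino80e*, was at 12.6, 12.4, 9.69 and 11.3 CPM in Del/+ and from 18.1 to 23.9 CPM in wt, with a median of 20.8. It was at 23.7, 23.3, 22.05 and 22.3 CPM in Del/Dup and at 32.1, 32.4, 33.9, 32.0 and 33.9 CPM in Dup/+. The Dup/+ animals lay within a narrow band, and the Del/Dup animals in the upper part of the wt range. Its log2 fold change was -0.86 in Del/+ (SE 0.08, adjusted p = 3.29e-07) and 0.66 in Dup/+ (SE 0.07, adjusted p = 1.34e-05).

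*Pagr1* was read less, with 51 to 206 reads per library. Its level was 1.87, 2.09, 2.05 and 2.45 CPM in Del/+, from 3.66 to 5.27 CPM with a median of 4.31 in wt, and 5.09, 3.92, 5.49 and 5.05 CPM in Del/Dup. Dup/+ libraries were at 5.57, 7.13, 5.86, 5.70 and 6.41 CPM, so that the lowest of them stood just above the highest Del/Dup library. It fell in Del/+ (log2 fold change -1.03, SE 0.12, adjusted p = 2.71e-05). In Dup/+ the log2 fold change of 0.47 (SE 0.10) missed the threshold, with an adjusted p of 0.0698, and passed it without wt replicate 4 (0.53, adjusted p = 0.0356) and by DESeq2 (0.48, adjusted p = 0.00944). Its interval of 0.25 to 0.69 held the 0.585 that the copies give.

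*Kif22* was the least read of the 6, with 14 to 61 reads per library. It stood at 0.658, 0.574, 0.579 and 0.672 CPM in Del/+, from 1.07 to 1.47 CPM with a median of 1.21 in wt, and at 1.21, 0.890, 1.36 and 1.25 CPM in Del/Dup. In Dup/+ it was at 1.73, 1.80, 2.15, 2.35 and 1.90 CPM. The 3 steps did not overlap in spite of the low counts, with 1 Del/Dup library under the wt range. The log2 fold change was -0.92 in Del/+ (SE 0.15, adjusted p = 0.00352) and 0.65 in Dup/+ (SE 0.13, adjusted p = 0.0406). The call in Dup/+ held in 5 of 20 alternatives, all 20 of which gave log2 fold changes of 0.58 to 0.70. It was lost when any of wt replicates 1 to 4 or any Dup/+ replicate was left out, with log2 fold changes of 0.58 to 0.69 and adjusted p up to 0.117, and held without wt replicate 5 or 6. It was also lost with scaling by total count (adjusted p = 0.0510), with no expression filter (0.102), with only the 2 groups in the fit (0.102), with wt replicate 5 counted as Dup/+ (0.105), with *Ttr* as covariate (0.0798) and with a replicate block (0.0816).

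*Ppp4c*, the phosphatase gene, was at 14.9, 12.6, 14.8 and 15.6 CPM in Del/+, against a lowest, median and highest wt library of 26.4, 29.6 and 32.7 CPM. Del/Dup libraries were at 27.4, 30.0, 28.4 and 26.3 CPM, and Dup/+ libraries at 38.1, 43.0, 43.3, 46.0 and 38.3 CPM. The Del/Dup animals overlapped the wt animals and the other groups stood apart. The log2 fold change was -1.01 in Del/+ (SE 0.07, adjusted p = 1.47e-08) and 0.51 in Dup/+ (SE 0.06, adjusted p = 1.40e-04).

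By count, 6 of 6 interval genes fell in Del/+ and 5 of 6 rose in Dup/+, where 0.771% and 0.272% of all tested genes were called in either direction. The median log2 fold change of the 6 was -0.96 in Del/+ and 0.57 in Dup/+, beside 0.00048 and -0.0018 over all genes tested. Among the 21 other interval genes tested, 19 fell in Del/+ (median -1.01) and 15 rose in Dup/+ (median 0.51). A further fit added a term for the class of multi-mapped share, above or below 55%. Every wt library lay below it, and of the Del/+ libraries only replicate 4. Del/+ against wt therefore rested there on Del/+ replicate 4 alone, and its calls are not given. The log2 fold changes were -1.49 for *Maz*, -0.83 for *Pagr1* and -0.82 for *Kif22*. With wt replicate 5 counted as Dup/+, 2 of the 6, *Ino80e* and *Hirip3*, were called in Dup/+, in a fit that called 12 of all genes in place of 42. The genes that lost the call there were *Maz* at 0.54 (adjusted p = 0.0949), *Kif22* at 0.64 (adjusted p = 0.105) and *Ppp4c* at 0.40 (adjusted p = 0.176). In that library the level of each of the 6 was below every Dup/+ library, and it lay within the range of the other wt libraries for 5 of them, with *Kif22* the exception at 1.47 CPM.

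**Figure D2:**
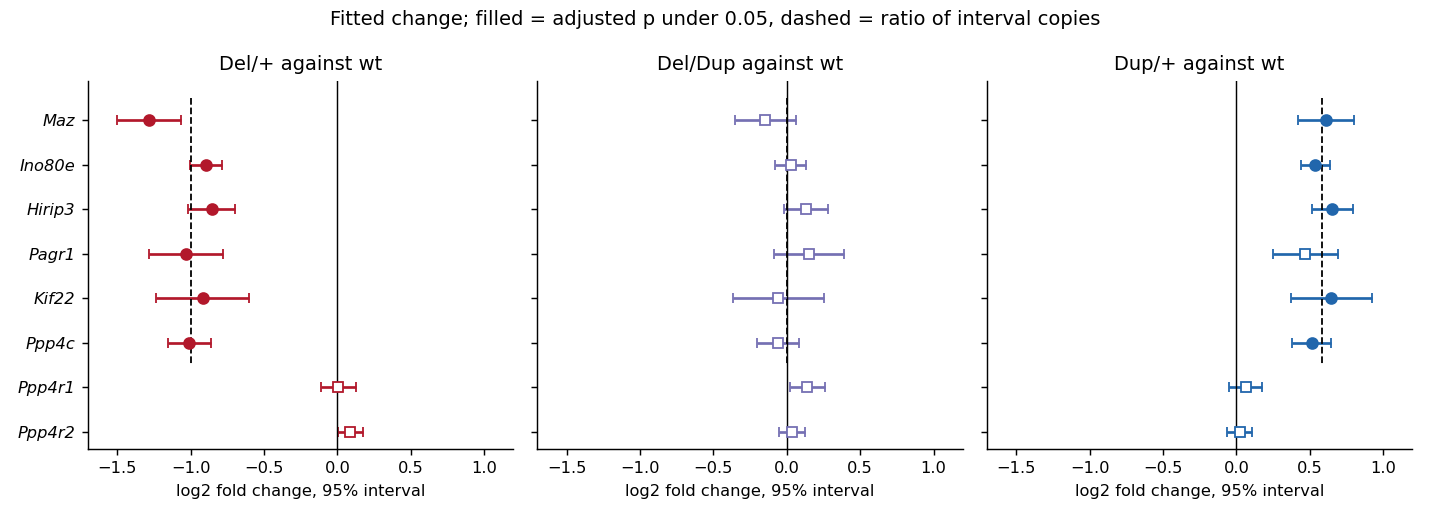
Fitted log2 fold change (horizontal axis) with its 95% interval for each gene against wt in Del/+, Del/Dup and Dup/+; filled circles passed an adjusted p of 0.05 and open squares did not, and the dashed line marks the log2 ratio of interval copies. *Maz* in Del/+ (-1.28) is the only interval on the plot among the 6 genes that does not reach the dashed line.

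Del/Dup asks whether 2 copies carried in another arrangement give the level of wt. None of the 6 interval genes was called in Del/Dup by edgeR, where 0.0907% of all genes were called, and none had an unadjusted p under 0.05. The log2 fold changes ran from -0.15 for *Maz* (95% interval -0.35 to 0.06) to 0.15 for *Pagr1* (-0.08 to 0.39). These intervals reached up to 1.31-fold the wt level in *Pagr1* and down to 0.775-fold in *Kif22*. The multi-mapped share was high in every Del/Dup and low in every wt library. The size of its term therefore came from Del/+ replicate 4 against Del/+ replicates 1 to 3. With that term the log2 fold change was -0.42 for *Maz* and 0.43 for *Pagr1*. Leaving out 1 library gave -0.26 to -0.06 for *Maz* and 0.10 to 0.24 for *Pagr1*, the value farthest from 0 being for both genes that without Del/Dup replicate 3, and 0 of the 6 were called in any of these fits. DESeq2, run as an alternative, also called 0 of the 6.

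The same steps were seen against Del/Dup in place of wt. All 6 genes were lower in Del/+ than in Del/Dup, with log2 fold changes of -0.86 to -1.18, where 0.168% of all genes were called lower. *Kif22* was the weakest of these (-0.86, adjusted p = 0.0309), and its call held without Del/Dup replicate 3 and was lost on leaving out any other library of the 2 groups, with values of -0.79 to -0.90 and adjusted p up to 0.19. With only the libraries of high multi-mapped share, which left Del/+ replicates 1 to 3 and the 4 Del/Dup animals, 5 of the 6 were called, among 23 of 15065 genes, and *Kif22* was at -0.90 (adjusted p = 0.293). Between Dup/+ and Del/Dup, 4 of the 6 were higher in Dup/+, with 0.181% of all genes called higher. *Pagr1* (0.32, adjusted p = 0.247) and *Kif22* (0.70, adjusted p = 0.0526) were not called. The class of multi-mapped share differs between these 2 groups in every animal. The size of its term came from Del/+ replicate 4 against Del/+ replicates 1 to 3, which are outside this comparison. With that term *Maz* was at 1.03, *Ino80e* at 0.50, *Hirip3* at 0.55, *Ppp4c* at 0.44 and *Pagr1* at 0.042. Its calls are not given, since the term rests on 1 library of low share. In Del/+ replicate 4, the Del/+ library with a multi-mapped share like that of wt, *Maz* at 12.7 CPM was the lowest of the 4 and *Ppp4c* at 15.6 CPM the highest, and all 6 genes were below every wt library.

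Set against each other, Del/+ and Dup/+ differed in all 6 genes, with log2 fold changes of -1.43 to -1.89, beside 0.486% of all genes called lower. A slope fitted over 1, 2 and 3 copies was called for all 6, beside 0.395% of all genes called as rising. It was 0.92 log2 units per copy for *Maz* (SE 0.07), 0.77 for *Kif22* (SE 0.08), 0.74 for *Hirip3* (SE 0.05), 0.74 for *Ppp4c* (SE 0.05), 0.71 for *Pagr1* (SE 0.08) and 0.70 for *Ino80e* (SE 0.04). A level exactly proportional to copies would give 0.78 over these 19 libraries, which the 95% intervals of all 6 held, *Ino80e* closely (0.62 to 0.78) and *Maz* at its lower end (0.77 to 1.06).

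The level per copy was set as a percentage of the wt mean, from CPM without the prior count that the fit adds. For *Kif22*, with few reads, this differs from the fit. Its fitted fold in Del/+ was 0.529, where its mean was 0.621 CPM in Del/+ and 1.24 in wt. In Del/+ it was 108% ± 9.20 for *Ino80e*, 111% ± 12.9 for *Hirip3*, 95.99% ± 10.9 for *Pagr1*, 100.1% ± 8.25 for *Kif22* and 99.0% ± 8.83 for *Ppp4c* (SD, n = 4). In Dup/+ it ran from 92.8% ± 9.72 for *Pagr1* to 107% ± 13.8 for *Kif22* (SD, n = 5). In each group but Del/+ the range of *Maz* held the wt mean. Of 36 fitted intervals, over 6 genes and 6 pairs of groups, 32 held the ratio of copies. The exceptions were *Maz* in Del/+ against wt and against Dup/+, *Ino80e* in Del/+ against Dup/+, and *Pagr1* in Dup/+ against Del/Dup. The alternatives moved this tally. In that order the 4 exceptions missed the ratio in 16 of 19, 16 of 18, 16 of 18 and 10 of 18 alternatives, and *Ino80e* and *Hirip3* in Del/+ against wt, which held it, missed it in 6 and 3 of 19.

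**Figure D3:**
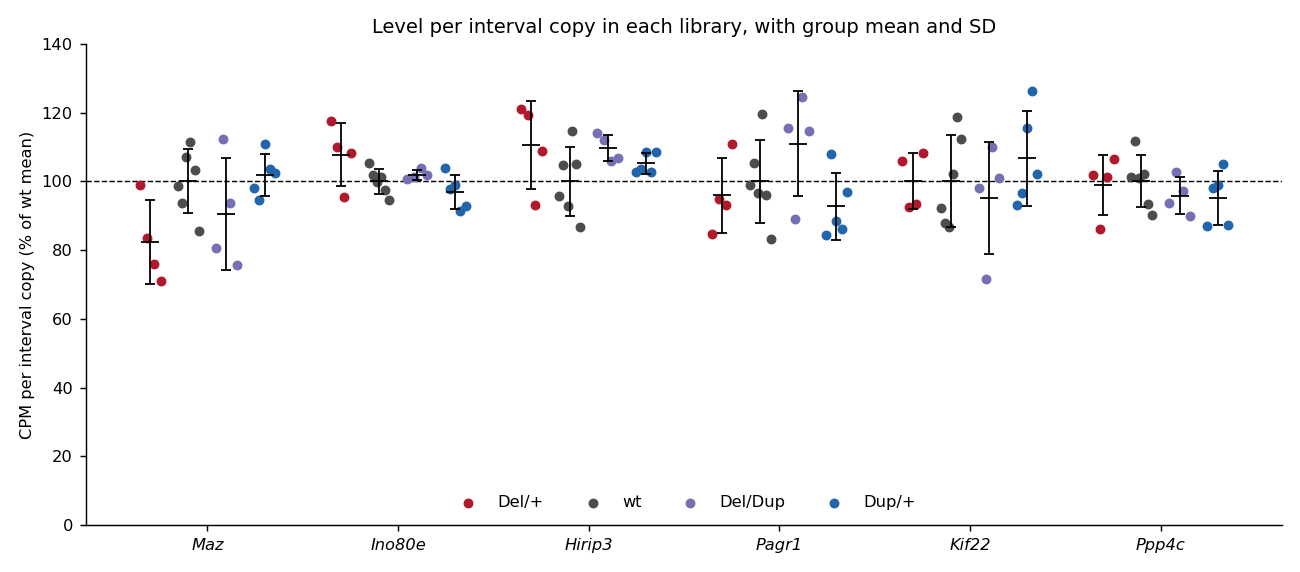
CPM divided by the number of interval copies, as a percentage of the wt mean (vertical axis, from 0), for the 6 interval genes in every library (points), with group mean and SD. Points gather around the dashed line at 100%, and *Maz* in Del/+ has its mean at 82.3%.

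The regulatory subunits lie outside the interval and have 2 copies in every group. *Ppp4r1*, a scaffold-like subunit, was at 18.2, 19.2, 18.8 and 17.6 CPM in Del/+ and from 17.4 to 19.6 CPM in wt, with a median of 18.3. It was at 17.6, 20.1, 18.7, 20.4 and 19.1 CPM in Dup/+, and at 19.2, 19.9, 22.8 and 18.96 CPM in Del/Dup. The groups overlapped, with 2 Del/Dup and 2 Dup/+ libraries above the wt range. *Ppp4r2*, which takes the phosphatase to centrosomes and to sites of DNA damage, was at 131, 127, 134 and 139 CPM in Del/+, with wt from 116 to 135 CPM and a median of 123. Dup/+ libraries were at 127, 129, 125, 126 and 128 CPM and Del/Dup libraries at 128, 130, 124 and 131 CPM, all within the wt range.

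Neither subunit was called in any of the 7 comparisons. The log2 fold change of *Ppp4r1* was 0.01 in Del/+ (95% interval -0.11 to 0.12), 0.06 in Dup/+ (-0.05 to 0.18) and 0.14 in Del/Dup (0.02 to 0.26, unadjusted p = 0.0251 and adjusted p = 0.249 by edgeR). That of *Ppp4r2* was 0.09 in Del/+ (0.00 to 0.18, unadjusted p = 0.0474 and adjusted p = 0.265 by edgeR), 0.02 in Dup/+ (-0.06 to 0.10) and 0.04 in Del/Dup (-0.05 to 0.13). The intervals in Del/+ bound a change of *Ppp4r1* to 1.09-fold and of *Ppp4r2* to 1.13-fold upward.

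The amount of *Ppp4c* RNA relative to that of its partners was therefore set by group. The log2 ratio of *Ppp4c* to *Ppp4r2* CPM, which can be compared between groups but not read as a ratio of molecules, was -2.10 ± 0.15 (SD, n = 6) in wt. It was -3.20 ± 0.08 (SD, n = 4) in Del/+ animals, -1.61 ± 0.13 (SD, n = 5) for Dup/+ and -2.20 ± 0.09 (SD, n = 4) among Del/Dup animals. The highest Del/+ animal, at -3.14, lay below the lowest wt animal, at -2.33. Against *Ppp4r1* the mean ratio differed from wt by -1.02 in Del/+, 0.45 in Dup/+ and -0.19 in Del/Dup. With the subunits *Ppp4r3a* and *Ppp4r3b*, which form the core complex with Ppp4c and Ppp4r2, the difference from wt was -1.13 and -1.13 in Del/+ and 0.48 and 0.48 in Dup/+. The subunit *Ppp4r4* gave -0.89 and 0.51. *Igbp1* and *Tiprl*, which encode proteins that bind free PP2A-like catalytic subunits, gave -1.09 and -1.03 in Del/+. These are descriptions with no test, and they carry the change of *Ppp4c* itself.

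**Figure D4:**
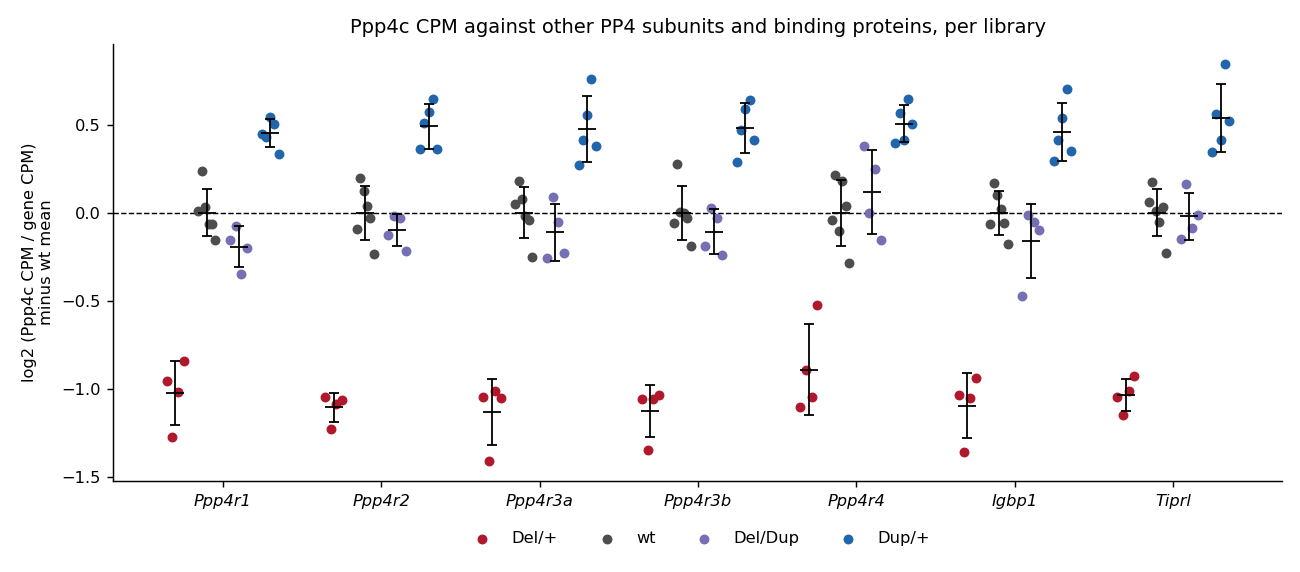
Log2 ratio of *Ppp4c* CPM to that of each other PP4 gene, minus the wt mean (vertical axis), in every library, with group mean and SD. Del/+ animals lie below and Dup/+ animals above the wt animals for each of the 7 genes (for *Ppp4r2*, means -1.11 and 0.49), and Del/Dup animals overlap wt.

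A further question was whether RNA of the genes that work with the 6 proteins differed with genotype. Lists covered the PP4 genes, other PP2A-like catalytic subunits, the INO80 complex, the KMT2C and KMT2D complexes, and the HIRA chaperones with histone H3.3. Others covered the spindle and mitosis, and zinc fingers of GC-rich promoters together with *Myc*, which is not a zinc finger gene. They named 72 partner genes, 69 of them present in the files and 65 expressed enough to be tested, *Ppp4r1* and *Ppp4r2* included. By edgeR 0 of the 65 were called in any of the 7 comparisons, in which 14 to 121 of all 15440 genes were called, so that few or no calls among 65 genes is near the background. At an unadjusted p under 0.05 there were 9 in Del/+, 2 in Dup/+ and 5 in Del/Dup against wt, where 18.4%, 8.94% and 16.2% of all genes tested had such a p. DESeq2 called *H3f3a* and *Vezf1* in Del/+, 0 genes in Dup/+ and *Kif20a* in Del/Dup against wt, and between the carrier groups *Vezf1* in Del/+ against Dup/+ and *Ppp6c* in Dup/+ against Del/Dup. Against wt DESeq2 called 655, 80 and 183 of the 15440 genes, and 267 and 177 in the other two comparisons named, so these counts too are near the background. edgeR also called *Kif20a* in Del/Dup without wt replicate 5, and with that library counted as Dup/+.

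Among the 7 PP4 genes outside the interval, the log2 fold change in Del/+ ran from -0.11 to 0.12 with a median of 0.08. The smallest adjusted p in Del/+ belonged to *Ppp4r3b* (0.11, adjusted p = 0.165) and *Ppp4r3a* (0.12, adjusted p = 0.25), and in Dup/+ to *Ppp4r1* and *Igbp1* (0.05, adjusted p = 0.852). The catalytic relatives *Ppp6c* and *Ppp2cb* were at -0.03 and 0.01 in Del/+ and at 0.07 and 0.01 in Dup/+. *Ppp2ca* was not matched by symbol.

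The 13 tested INO80 genes other than *Ino80e* had a median log2 fold change of -0.02 in Del/+ and -0.01 in Dup/+. *Yy1*, a zinc finger factor bound to the complex, was at -0.21 in Del/+ (adjusted p = 0.167), and *Ino80c*, a core subunit, at 0.08 (adjusted p = 0.285). In Dup/+ the smallest adjusted p were those of *Mcrs1* (-0.05, adjusted p = 0.783) and *Actl6a*, an actin-related subunit (0.09, adjusted p = 0.846). The 7 tested genes of the KMT2C and KMT2D complexes ran from -0.09 to 0.05 in Del/+. Of these, *Kdm6a*, the histone demethylase of the complexes, was at -0.09 in Del/+ and -0.08 in Dup/+ (adjusted p = 0.353 and 0.646), *Rbbp5* at 0.04 in Del/+ and *Ash2l* at 0.07 in Dup/+. *Kmt2c* and *Kmt2d* were not matched by symbol.

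Of 9 tested genes of the HIRA group, *H3f3a*, a gene for histone H3.3, was at 0.13 in Del/+ (SE 0.04, adjusted p = 0.123) and 0.09 in Dup/+ (adjusted p = 0.523). *Cabin1*, a subunit of the HIRA complex, was at -0.17 and -0.10 (adjusted p = 0.165 and 0.637). The 18 tested spindle and mitosis genes spread most, from -0.38 to 0.76 in Del/+ with a median of 0.18 and from -0.43 to 0.24 in Dup/+ with a median of -0.06. Many of them were read little. In wt libraries *Kif15*, the top of the Del/+ range, had 14 to 62 reads and *Nusap1* 4 to 19, while *Mki67* had 182 to 265. The part of low counts in this spread was not tested. The kinesins *Kif20a* and *Kif23* were at 0.26 and 0.41 in Del/+ (adjusted p = 0.242 and 0.282), while in Dup/+ *Top2a*, the topoisomerase of dividing cells, was at -0.43 (adjusted p = 0.414) and *Nusap1* at -0.40 (adjusted p = 0.655). In the list of zinc finger genes with *Myc*, 9 genes were tested. There *Vezf1* had the smallest adjusted p of all partners in Del/+ (0.15, adjusted p = 0.0853), followed in its list by *Ctcf*, the boundary protein (0.13, adjusted p = 0.187). *Sp4* and *Ctcf* were at 0.08 and 0.07 in Dup/+ (adjusted p = 0.68 and 0.742).

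**Figure D5:**
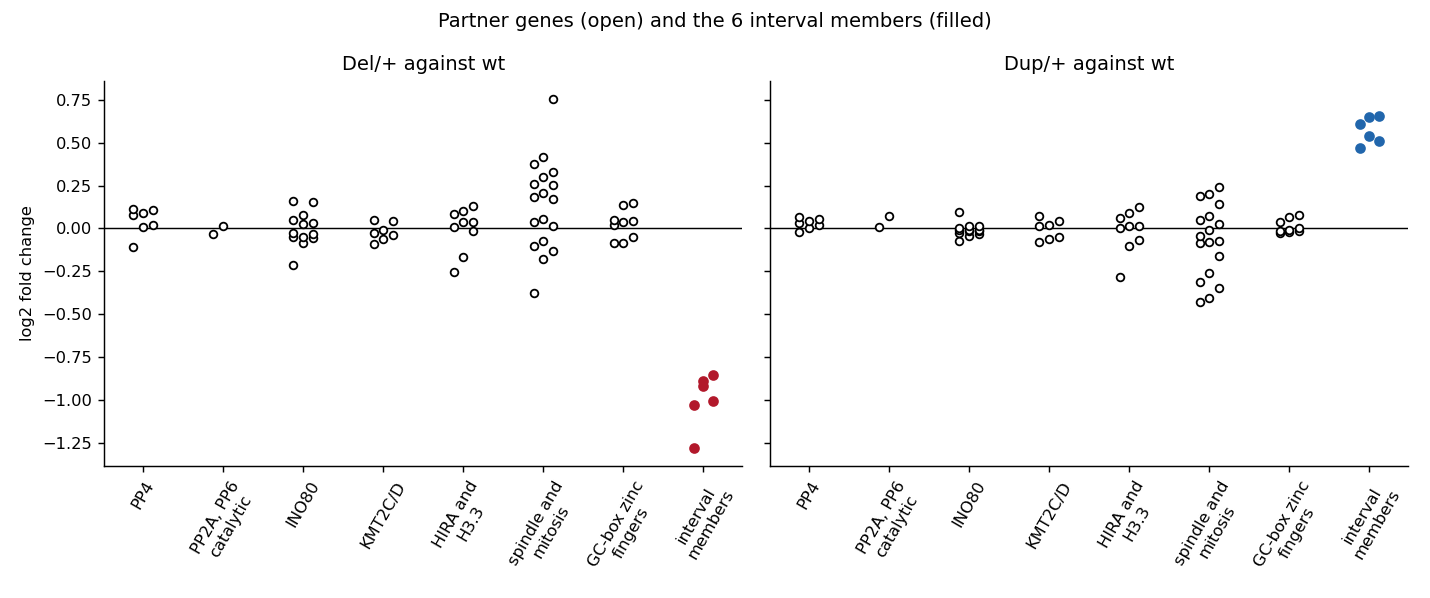
Log2 fold change (vertical axis) in Del/+ and Dup/+ against wt for each tested partner gene by list (open circles) and for the 6 interval genes (filled circles). Partners other than spindle and mitosis genes lie between -0.28 and 0.16, apart from all 6 interval genes. The spindle list, with many genes at low counts, reaches from -0.43 to 0.76.

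Genes with a Maz-type box in the promoter were then compared with the others, outside the interval. Of 10845 tested genes with a promoter sequence, 3036 held GGGAGGG on either strand and 7809 did not. The median log2 fold change in Del/+, where *Maz* fell, was -0.01 with the box (quartiles -0.10 and 0.08) and 0.01 without it (-0.08 and 0.09). In Dup/+ it was -0.01 (-0.07 and 0.05) and 0.00 (-0.06 and 0.06). In Del/+, 32 genes with the box were called, 20 lower and 12 higher, which is 1.05% of them, and 29 without it, 13 lower and 16 higher, or 0.371%. In Dup/+ the order was the other way, with 1 gene called (0.0329%) and 10 (0.128%). All calls in Del/+ numbered 119, and 46 to 261 on leaving out 1 library. Promoters with the box were richer in G and C, at a median of 64.7% against 59.3%, and the part of base composition in these shares was not tested.

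Beyond genotype, animals of a group differed from each other in each gene, and the genes outside the interval that followed these differences most closely were sought, as Pearson's r of log2 CPM over the 19 libraries with group means removed. The closest gene was *AABR07015042.1* for *Maz* (r = 0.90), *Nmrk1* for *Ino80e* (0.78), *AABR07038948.2* for *Hirip3* (0.82), *Tmem98* for *Pagr1* (0.83), *Pstpip1* for *Kif22* (0.78), *Actr1b* for *Ppp4c* (0.77), *Rbm25l1* for *Ppp4r1* (0.81) and *Upf2* for *Ppp4r2* (0.82). Each is the highest of all tested genes outside the interval, so a high value was bound to be found, and the values share libraries and depth. Among the 8 genes themselves r ran from -0.41, for *Maz* with *Ppp4r2*, to 0.54, for the neighbours *Ino80e* and *Hirip3*. *Ppp4c* was at 0.06 with *Ppp4r2* and 0.12 with *Ppp4r1*.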

How the data were processed

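Hippocampal RNA of 19 male rats was analysed. The authors prepared stranded total RNA libraries (the protocol gives removal of rRNA, the molecule field polyA RNA), read them as single ends, aligned them with Hisat2 to rn6 and ran HTSeq-count. What the authors deposited are unnormalized counts for each Ensembl gene, 1 file per library. bcl2fastq 2.17.1.14, R 3.6 and DESeq2 stand in the submitters' processing notes.

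Here 15440 of 24345 genes with a read passed filterByExpr. Libraries were scaled by TMM, and edgeR 4.0.16 in R 4.3.3 fitted a mean per group over all 19 libraries (quasi-likelihood test, prior count 2). Calls needed a Benjamini-Hochberg adjusted p under 0.05 over all tested genes. Fits were tested on simulated data. DESeq2 1.42.0 and other alternatives are given at the end. Totals of 16191192 to 38760645 reads and a common biological coefficient of variation of 0.101 set the precision. Libraries of a group differed beyond counting error (chi-square per degree of freedom 3.60 to 59.9). P-values set a difference between groups against the spread between animals within groups, estimated over all groups, with animals taken as independent.

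Members, partner lists and tests were chosen with earlier results of these data known. Partners named singly are the 2 with the smallest adjusted p of each list in Del/+ and in Dup/+, with other PP4 genes and those called by an alternative. Groups came from the sample descriptions. The same replicate numbers in different groups did not mark paired animals. Symbols are those of the files, and no rn6 gene models were used.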

Additional observations from a re-analysis of the deposited data

How the results depend on the processing

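Of 139 recomputed counts of called interval genes, 136 stayed within 1.5 times the count reported. With wt replicate 5 counted as Dup/+, 2 of 6 were called in Dup/+ against wt and 1 of 6 in Dup/+ against Del/Dup, with 12 of all genes called in each. The log2 fold changes that lost their calls were 0.54 for *Maz*, 0.64 for *Kif22* and 0.40 for *Ppp4c* against wt, and 0.43 for *Ino80e*, 0.44 for *Hirip3* and 0.49 for *Ppp4c* against Del/Dup. The count also moved in Dup/+ against Del/Dup with the term for the multi-mapped share. The size of that term came from Del/+ replicate 4 against Del/+ replicates 1 to 3, so the fit cannot tell the share from that animal. The part of the share was not tested. Of 1110 recomputed changes of single genes, 1056 kept direction and side of the threshold, 39 lost a call (29 of them of *Kif22*), 3 gained one and 12 changed sign, none of the last having been called. *Ppp4r1* in Del/+ was at -0.0626 with the share term, -0.0181 with *Ttr* as covariate, -0.00053 with a replicate block and -0.00913 to 0.0346 on leaving out 1 library. In Del/Dup, the share term gave 0.082 for *Kif22* and 0.0761 for *Ppp4c*, leaving out 1 library gave -0.124 to 0.0484 for *Kif22*, and the *Ttr* covariate gave -0.00261 for *Ppp4r2*. *Ppp4r2* in Dup/+ was at -0.00668 with wt replicate 5 counted as Dup/+. In Dup/+ against Del/Dup, *Ppp4r1* was at 0.0184 with the share term and *Ppp4r2* at 0.0101 with the *Ttr* covariate. Of 1012 recomputed levels per copy and PP4 ratios, 1006 moved by less than 1 SD. In Del/+ against wt DESeq2 gave no adjusted p for *Pagr1* and *Kif22* and called the other 4.

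Deviations of 24 pairs of libraries with the same replicate number correlated at -0.17 to 0.12, and 2 exceeded 0.1. Low correlations cannot exclude shared litters, which were not known here. With the replicate block, 6, 4 and 0 interval genes were called in Del/+, Dup/+ and Del/Dup against wt, while the calls over all genes went from 119 to 72, from 42 to 31 and from 14 to 7. The call lost in Dup/+ was that of *Kif22*, at 0.68 in place of 0.65 (adjusted p = 0.0816).

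Calls over all genes depended on the tool: DESeq2 called 655 in Del/+, 80 in Dup/+ and 183 in Del/Dup against wt, where edgeR called 119, 42 and 14. Under the other alternatives the counts were 46 to 261, 12 to 43 and 2 to 216. DESeq2 called 267 in Del/+ against Dup/+ (edgeR 121), 74 in Del/+ against Del/Dup (27), 177 in Dup/+ against Del/Dup (49) and 162 for the slope (89), and the other alternatives gave 51 to 139, 22 to 31, 7 to 79 and 43 to 124. *Kif22* had 14 to 61 reads per library, the fewest of the 8 genes. The fit restricted to libraries of high multi-mapped share was chosen after seeing the data.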
